A study of Homo sapiens with 12 samples.

Results

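The 300 stretches of chromosome described here, each 1 Mb long, held a smaller share of the pan-succinyllysine (Ksu) peaks of a library after sodium succinate than in control cells. They were chosen on that value. Chromosomes 1 to 22 were cut into 1-Mb windows from their first base, the peaks of each Ksu library were counted by midpoint, and windows with 5 or more peaks in all 4 libraries were kept. For each kept window the peaks were divided by all autosomal peaks of the library, and the mean log2 share of the control libraries was subtracted from that of the succinate libraries. Of 2731 windows with any peak, 2534 were kept, and the 300 with the lowest difference are the member windows. Of the kept windows, 2234 were not members.

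The cells were HepG2/C3A, a human hepatocellular carcinoma line, cultured without added succinate (control) or with 10 mM sodium succinate, both for 48 hours. The antibodies used here recognised succinylated lysine on any protein and histone H3 trimethylated at lysine 27 (H3K27me3), each with 2 biological replicates per treatment, called control 1, control 2, succinate 1 and succinate 2 below. The assay was CUT&Tag, in which an antibody brings a transposase to chromatin and the released fragments are sequenced. All groups shared 1 cell line, so the results describe that line, and IgG libraries were not analysed here, so the antibody background of these values is not known.

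Lysine succinylation adds an acidic acyl group, derived from succinyl-CoA, to a residue that is otherwise positively charged, and it occurs on histones as well as on metabolic enzymes. Succinate also competes with 2-oxoglutarate at the dioxygenases that remove methyl groups from histones and DNA, while H3K27me3 is placed by Polycomb repressive complex 2 at silenced developmental genes. Stretches of a megabase with few genes are typically compact chromatin near the nuclear lamina, and many hold very long genes that neurons use and hepatocytes do not.

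The autosomal Ksu lists held 76090 peaks in control 1, 370201 in control 2, 290362 in succinate 1 and 612943 in succinate 2. How deeply each library was read is not known from such lists. Peak numbers differed severalfold between replicates of the same treatment, and shares of peaks were compared in place of numbers. A lower share therefore does not mean fewer peaks. In all 300 members succinate 1 had more peaks than control 1, and in none of the 2534 kept windows did it have fewer. Succinate 2 had fewer peaks than control 2 in 252 members, against 186 of the 2234 other kept windows. The word loss thus holds for the share of peaks and, in absolute number, only for the libraries of replicate 2.

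The members with the lowest differences lay on the long arm of chromosome 5. Several of these windows touched no protein-coding gene, and others held TENM2, PRR16 or genes for receptors and ion channels of neurons. A RefSeq start within these windows is shown for 5 of those genes, because these are the sequences at hand for the windows on which the description turns (RefSeq, GRCh38.p14, 250 bases before to 50 bases after a start, 5′ to 3′ on the gene's strand, CG dinucleotides in capitals). GABRB2 and GABRA6 encode subunits of the GABA-A receptor, GRIA1 a subunit of the AMPA glutamate receptor, KCNN2 a calcium-activated potassium channel and TENM2 a teneurin, a cell adhesion protein of synapses. For GRIA1 and TENM2, which have several listed starts in these windows, the listed start nearest the 5′ end is shown. PRR16 also has listed starts, which are not shown. Only the GABRA6 start lies at the 5′ end of the annotated gene, and the others are internal. The annotated genes begin at bases 114055978 (KCNN2), 166979029 (TENM2) and 153489615 (GRIA1) of chromosome 5. GABRB2, on the minus strand, begins at base 161548404.
GABRB2 (chr5:161546676-161546975): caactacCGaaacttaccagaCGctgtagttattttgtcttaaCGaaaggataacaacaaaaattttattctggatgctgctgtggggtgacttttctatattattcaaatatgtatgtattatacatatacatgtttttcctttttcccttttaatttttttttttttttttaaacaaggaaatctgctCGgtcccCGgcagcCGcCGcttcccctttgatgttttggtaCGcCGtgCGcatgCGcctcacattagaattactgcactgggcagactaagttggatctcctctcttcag
GABRA6 (chr5:161685471-161685770): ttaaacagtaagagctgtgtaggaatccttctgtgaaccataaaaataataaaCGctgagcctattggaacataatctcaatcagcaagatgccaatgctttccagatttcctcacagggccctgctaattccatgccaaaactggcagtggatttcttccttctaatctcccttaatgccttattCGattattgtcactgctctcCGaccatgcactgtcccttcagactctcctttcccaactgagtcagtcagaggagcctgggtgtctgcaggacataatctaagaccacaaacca
GRIA1 (chr5:153490420-153490719): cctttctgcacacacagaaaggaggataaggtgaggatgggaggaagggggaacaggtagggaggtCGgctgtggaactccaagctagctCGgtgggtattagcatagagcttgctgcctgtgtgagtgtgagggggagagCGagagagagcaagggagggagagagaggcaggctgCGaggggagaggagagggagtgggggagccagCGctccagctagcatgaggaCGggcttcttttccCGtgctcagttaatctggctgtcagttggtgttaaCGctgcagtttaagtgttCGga
KCNN2 (chr5:114361820-114362119): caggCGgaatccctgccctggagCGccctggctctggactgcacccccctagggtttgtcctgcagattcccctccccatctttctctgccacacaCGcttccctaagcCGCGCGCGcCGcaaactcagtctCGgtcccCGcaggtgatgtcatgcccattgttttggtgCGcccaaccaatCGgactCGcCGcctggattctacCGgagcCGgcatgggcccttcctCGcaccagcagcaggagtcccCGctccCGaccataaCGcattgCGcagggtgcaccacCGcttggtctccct
TENM2 (chr5:167072992-167073291): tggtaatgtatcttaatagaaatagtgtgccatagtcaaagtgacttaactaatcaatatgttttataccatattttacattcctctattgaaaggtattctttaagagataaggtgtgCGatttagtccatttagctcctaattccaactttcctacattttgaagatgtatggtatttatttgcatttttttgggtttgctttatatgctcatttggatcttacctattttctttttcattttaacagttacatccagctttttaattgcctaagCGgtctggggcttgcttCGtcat
GABRB2 lies on the minus strand and the others on the plus strand. These starts held 11 CG dinucleotides in GABRB2, 3 in GABRA6, 9 in GRIA1, 22 in KCNN2 and 3 in TENM2, so the set ranged from CG-poor to CG-rich. Ksu peaks overlapped the GABRB2 start in control 2 and succinate 2, the GABRA6 start in control 2 and the GRIA1 start in control 1. No Ksu peak overlapped the starts shown for KCNN2 and TENM2. Control 1 alone had an H3K27me3 peak over the starts of GABRB2 and GRIA1. RefSeq starts were matched for 231 of the 288 protein-coding genes of the members and for 79.7% of those of the other kept windows. With under 80% of the latter matched, a comparison of base composition between the sets is void and is not given.

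**Figure D1:**
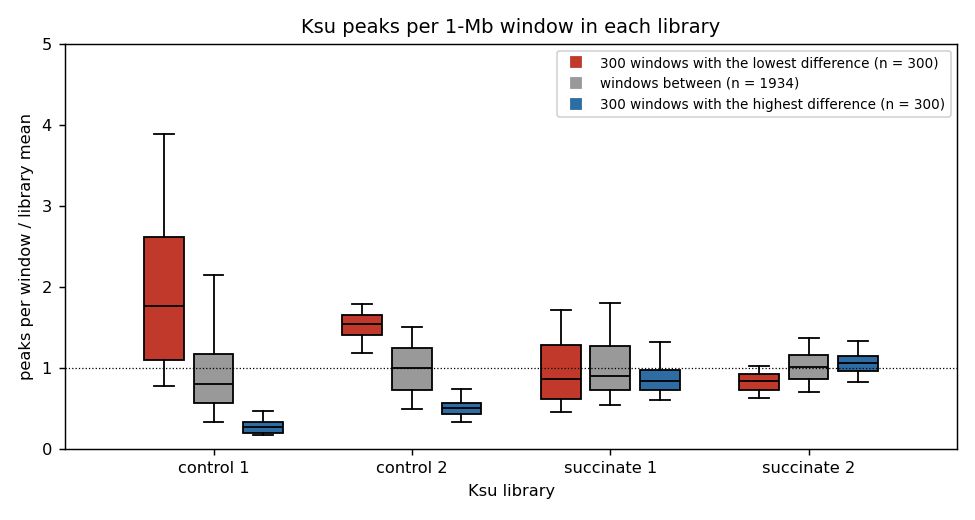
Ksu peaks per 1-Mb window divided by the mean over all kept windows of the same library (vertical axis, no unit) in the 4 Ksu libraries, for the members (red), the windows between (grey) and the 300 windows with the highest difference (blue). Boxes give quartiles and median, whiskers the 5th and 95th percentiles, and the dotted line the library mean; the red medians lie above the grey ones in both control libraries and below them in both succinate libraries.

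In control cells Ksu peaks were denser in the members than in the other kept windows, and in succinate-treated cells they were sparser. The members make up 11.8% of the kept windows. They held 23.1% of the autosomal Ksu peaks in control 1, 17.5% in control 2, 11.03% in succinate 1 and 9.31% in succinate 2. Both control libraries were therefore above the share of windows and both succinate libraries were below it, without overlap. Because these values chose the windows they are a description and carry no test.

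Peaks per member window ranged from 8 to 182 in control 1 (median 52.5), from 38 to 278 in control 2 (median 219.5), from 16 to 266 in succinate 1 (median 95) and from 31 to 271 in succinate 2 (median 192.5). The medians over the other kept windows were 21, 132, 98 and 234 in the same order. The mean number of peaks in a member was 2.26 times that in another kept window in control 1, 1.63 times in control 2, 0.960 times in succinate 1 and 0.807 times in succinate 2. Counted in bases under peaks instead of peaks, the ratios were 2.30, 1.66, 0.926 and 0.775, the same order. Median peak width in the members was 972, 446, 566 and 455 bp, and in the other kept windows 980, 445, 585 and 472 bp. Within each library peak width was close in and outside the members.

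The log2 difference of the members ranged from -1.66 to -0.77, with a median of -0.93, which is a share 0.523 times that in control. The median over the other kept windows was 0.22. In 272 of the 300 members both succinate libraries had a lower share than both control libraries, and in the other 28 the libraries of the treatments overlapped. Over all kept windows that pattern was found in 26.9%, and nothing is read from the count, since the same libraries chose the members. The windows just inside the limit had differences from -0.773187 to -0.772438 and those just outside from -0.769910 to -0.768685, so the limit falls in a continuous distribution. Just inside lay windows of chromosomes 4, 7, 10, 2 and 13 that touched HS3ST1, a heparan sulfate sulfotransferase gene, or GRM8, a metabotropic glutamate receptor gene, or no protein-coding gene. Just outside lay windows of chromosomes 12, 18, 11, 3 and 7, among them windows holding the contactin gene CNTN3 and a cluster of olfactory receptor genes.

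The order of windows was also compared between the replicate numbers, among windows that were kept on all 4 libraries. The 300 kept windows with the lowest difference between succinate 1 and control 1 had a median difference of -0.84 between succinate 2 and control 2, and 293 of them lay below 0. Over all kept windows the median of replicate 2 was 0.045 and 48.1% lay below 0. In the opposite direction, the 300 windows lowest in replicate 2 had a median of -0.75 in replicate 1, with 286 below 0, against 0.12 and 44.0% over all kept windows. The 2 lists shared 149 windows. Each side of this comparison had 1 library per treatment and no test was possible, so the counts are a description of these libraries. Across the 2534 kept windows, which share library and depth within each replicate number, the differences of replicate 1 and replicate 2 had a Spearman rho of 0.83.

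**Figure D2:**
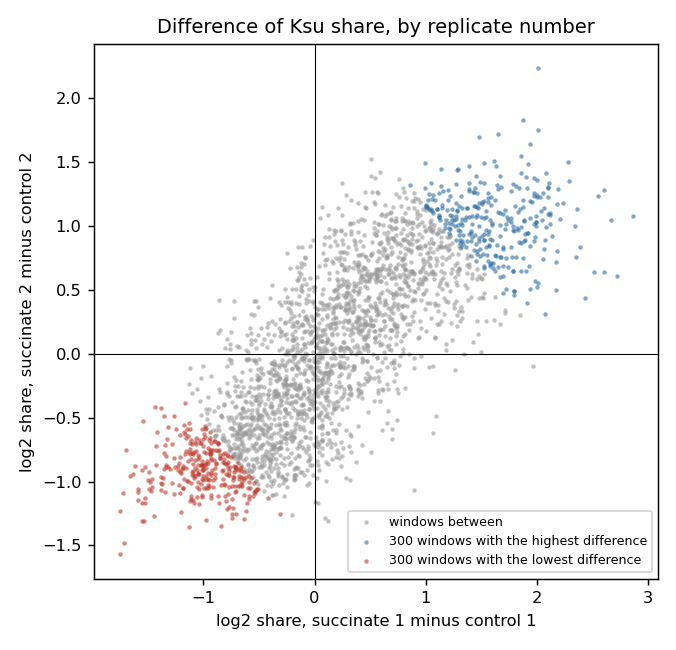
Difference in log2 share of Ksu peaks between succinate and control for libraries numbered 1 (horizontal axis) and numbered 2 (vertical axis), 1 point per kept window, with members in red and the 300 windows with the highest difference in blue. All members lie below 0 on both axes, at medians of -1.003 and -0.91.

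The 10 lowest members all lay on chromosome 5. The lowest, chr5:166000001-167000000, held 84 and 235 peaks in the control libraries and 95 and 131 in the succinate libraries, a log2 difference of -1.66. The window holds the first 21.0 kb of TENM2 and no other protein-coding gene. The windows chr5:165000001-166000000 and chr5:164000001-165000000 touched no protein-coding gene. They held 67 and 60 peaks in control 1, 254 and 264 in control 2, 76 and 78 in succinate 1 and 179 and 176 in succinate 2, with differences of -1.49 and -1.43. In each of these windows succinate 1 had somewhat more peaks than control 1, from a library with far more peaks in all, and succinate 2 had fewer than control 2.

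The other 6 of the 10 were alike. The window chr5:125000001-126000000 (difference -1.42) touched no protein-coding gene, and chr5:167000001-168000000 (-1.40) lay wholly within TENM2. The window chr5:161000001-162000000 (-1.37) held GABRB2 and GABRA6, among others. It had 60 and 244 peaks in control and 76 and 183 in succinate. The window chr5:114000001-115000000 (-1.36) held KCNN2, and chr5:120000001-121000000 (-1.36) held PRR16. The tenth, chr5:153000001-154000000 (-1.35), held GRIA1 and the edge of FAM114A2, with 116 and 247 peaks in control and 154 and 182 in succinate. Every window of the 10 had a lower share in both succinate libraries than in both control libraries, a pattern of 26.9% of all kept windows that the ranking on these libraries favours.

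Members often lay side by side. Of the 300, 183 had a neighbouring member, and they formed 188 runs, of which 117 were single windows. The longest run, chr5:158000001-168000000, spanned 10 Mb from EBF1, a transcription factor gene of B cells, through ATP10B to TENM2. It held 706 and 2383 peaks in control and 942 and 1870 in succinate, with a mean difference of -1.30, and 23 protein-coding genes had their midpoint in it. The next, chr4:130000001-137000000, spanned 7 Mb with only PABPC4L and the protocadherin gene PCDH10, and held 190 and 1341 peaks in control and 426 and 1053 in succinate (mean difference -0.91). The third, chr2:122000001-127000000, spanned 5 Mb around CNTNAP5, a contactin-associated protein gene, with 492 and 1156 peaks in control and 895 and 1053 in succinate (mean difference -0.95). In these runs, too, only the libraries of replicate 2 showed fewer peaks in absolute number.

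Gene content, which the rule did not use, was low in the members. A gene was counted in the window that held its midpoint. The members held 288 protein-coding genes, a mean of 0.960 per window and a median of 1, and the other kept windows a mean of 6.999 and a median of 5. No protein-coding gene was counted in 121 members (40.3%), and 0 or 1 gene in 235 members (78.3%, 95% Wilson interval 73.3% to 82.6%, counting error only). In the other kept windows 18.7% had 0 or 1 gene (17.1% to 20.4%). Neighbouring windows share genes and chromatin and are not independent, so no test was made of this difference. The 300 windows with the highest difference had a median of 10 genes, and 2.00% of them had 0 or 1 gene.

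Read the other way, 38.7% of the 313 kept windows without a gene were members, 33.5% of the 340 with 1 gene, 9.17% of the 665 with 2 to 4, 0.562% of the 712 with 5 to 9 and none of the 504 with 10 or more. The median difference rose through these classes from -0.68 and -0.59 over -0.13 and 0.42 to 0.87. Windows without a gene held 15.3% of the Ksu peaks in control 1, 16.2% in control 2, 9.86% in succinate 1 and 9.59% in succinate 2. For windows with 10 or more genes the values were 12.3%, 12.7%, 19.7% and 20.1% in that order. In both classes the libraries of the treatments did not overlap. Across kept windows the difference and the number of genes had a Spearman rho of 0.72, as a description over windows that share their libraries. The number of Ksu peaks itself had a rho with gene number of -0.40 and -0.68 in control and of 0.16 and 0.41 in succinate, so the sign of this relation differed between the treatments in both replicates.

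**Figure D3:**
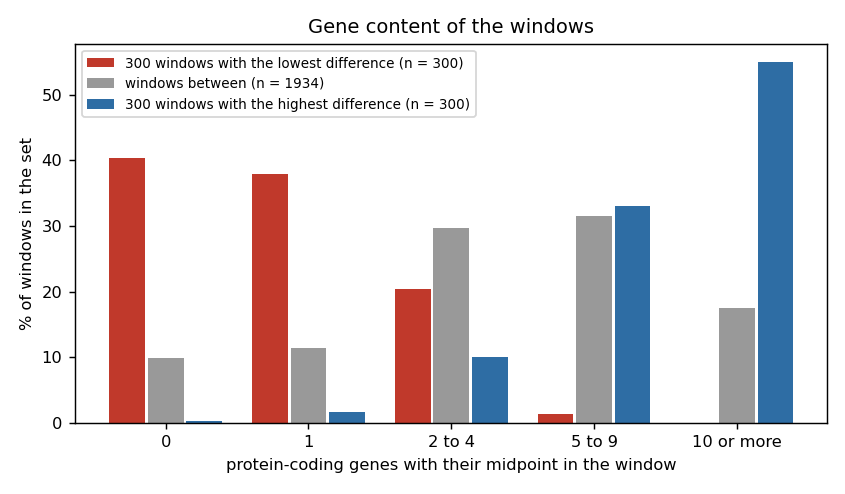
Share of windows (percent, vertical axis) by the number of protein-coding genes with their midpoint in the window (horizontal axis) for the members (red), the windows between (grey) and the 300 windows with the highest difference (blue). The members fill the classes with 0 and 1 gene, at 40.3% and 38.0%, and none of them has 10 or more genes.

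The genes that the members do hold were long. Their median length was 120 kb, against 27.8 kb in the other kept windows, and 63 of the 288 (21.9%) were longer than 500 kb, against 1.52%. Protein-coding gene bodies covered a median of 13.2% of a member and 49.0% of another kept window, yet 78 members were covered for more than 50% and 93 not at all. The members thus ranged from windows without any gene body to windows inside a single gene. Long non-coding RNA genes were fewer too, at a mean of 3.803 per member and 6.64 per other kept window, as were microRNA genes, at 0.197 and 0.632. Among windows with 0 or 1 gene, gene bodies covered a median of 3.58% in the 235 members and 9.02% in the 418 others. Long non-coding RNA genes averaged 3.55 and 4.75 in these windows. Both gaps were smaller there than over all windows, so low values of this kind are not particular to the members.

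Named gene families were counted next, as genes whose window was a member out of those in kept windows. The background is 288 of 15923 protein-coding genes, or 1.81%. No test was made, since long genes, neighbouring genes and shared windows make the counts dependent. Families of adhesion molecules and receptors of neurons had the highest shares. Contactins and contactin-associated proteins had 5 of 10 (CNTN4, CNTN5, CNTN6, CNTNAP2 and CNTNAP5), with window differences from -1.15 for CNTN6 to -0.87 for CNTN4. The LRRTM and SLITRK proteins, which organise synapses, had 3 of 8 (LRRTM1, SLITRK1 and SLITRK5). Glutamate receptors had 6 of 21, in 6 windows (GRIA1, GRIK2, GRID1, GRM5, GRM7 and GRM8), with differences from -1.35 for GRIA1 to -0.77 for GRM8. Cadherins, calcium-dependent adhesion proteins, had 6 of 23 (CDH8, CDH9, CDH10, CDH11, CDH12 and CDH18), of which 4 lay on the short arm of chromosome 5.

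Other families were closer to the background or above it by few genes. Potassium channels and their subunits had 5 of 85 (KCNH8, KCNN2, KCNIP1, KCNMB1 and KCNQ5), protocadherins 3 of 63 (PCDH7, PCDH10 and PCDH15, none of them in the clusters of chromosome 5), and zinc finger genes 7 of 333. Semaphorins had 1 of 17 (SEMA5A) and taste receptors 1 of 17 (TAS2R1), both in 1 window of chromosome 5. The mitochondrial carriers of solute carrier family 25 had 1 of 36 (SLC25A46). No gene fell in a member among 341 olfactory receptors, 50 cytochrome P450 genes, 19 UDP-glucuronosyltransferases, 27 keratins, 38 keratin-associated proteins, 40 HOX genes, 17 type I interferons, 59 replication-dependent histone genes, 17 hepatocyte secreted proteins, 7 housekeeping genes and 22 genes of succinate metabolism and succinylation. Apart from the olfactory receptors these lists are short, and at a background of 1.81% little can be read from a count of 0. The windows of 28 of 55 keratins and 56 of 94 keratin-associated proteins were not kept. Olfactory receptor genes lie in dense clusters, and the median difference of their windows was 0.040, against 0.67 over all genes. A cluster in chr11:56000001-57000000 lay just outside the limit, at -0.769, so the count of 0 for this family depends on where the limit was set.

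The members were spread unevenly over the chromosomes. Chromosomes 2 and 5 held 56 each, chromosome 4 held 35, chromosome 6 held 34 and chromosome 11 held 23, while 4 chromosomes (15, 17, 19 and 22) held none. Members made up 32.2% of the kept windows of chromosome 5 and 1.90% of those of chromosome 1. The chromosomes differed in the same way among windows with 0 or 1 gene, where the members were 37 of 54 on chromosome 5, 18 of 26 on chromosome 11 and 42 of 66 on chromosome 2, but 4 of 33 on chromosome 1 and 4 of 38 on chromosome 13. Chromosome 5 as a whole had 8.36% and 7.51% of the Ksu peaks in control and 5.47% and 5.80% in succinate, without overlap.

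The place of chromosome 2 in the list rested on single libraries. Control 1 had 18.1% of its peaks on chromosome 2, against 11.02% in control 2, 13.3% in succinate 1 and 10.1% in succinate 2. When control 1 was left out, 157 of the 300 members were still among the 300 lowest windows, and of the members on chromosome 2 only 1 of 56 was. On chromosome 10 it was 1 of 16, on chromosome 20 none of 9 and on chromosome 6 10 of 34, whereas on chromosome 4 34 of 35 stayed and on chromosome 5 40 of 56. When control 2 was left out instead, 211 members stayed, with all 56 on chromosome 2 and 13 of 35 on chromosome 4. Without succinate 1, 232 members stayed, with 17 of 35 on chromosome 4. Without succinate 2, 211 stayed, with 13 of 56 on chromosome 2 and 2 of 16 on chromosome 10. The count on chromosome 5 was 45 and 51 of 56 in these 2 cases. HepG2 is known to carry extra copies of chromosomes 2, 14, 16, 17 and 20. Together these held 73 members in 516 kept windows (14.1%), against 11.2% of the windows of the other autosomes. Of the 73, 56 lay on chromosome 2. Members were 3 of 85 kept windows on chromosome 14, 5 of 72 on chromosome 16, 0 of 59 on chromosome 17 and 9 of 63 on chromosome 20. The part of copy number in the result was not tested.

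**Figure D4:**
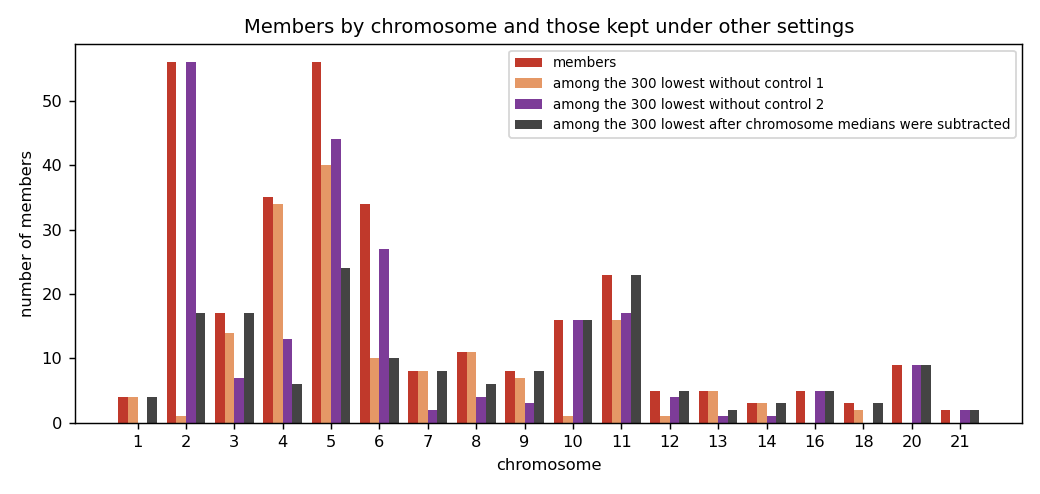
Number of members by chromosome (red), and how many of them stayed among the 300 lowest windows without control 1 (orange), without control 2 (purple) and after the median difference of each chromosome was subtracted (black). The 56 members of chromosome 2 fall to 1 without control 1, while 40 of the 56 on chromosome 5 stay.

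With equal numbers of peaks from each library (the 76090 of highest total signal), 182 members were among the 300 lowest windows and the median difference of the members was -1.19. When the median of each chromosome was subtracted, an alternative added after the data were seen, 168 stayed. The gene content of the windows chosen in these ways was 79.3% and 78.0% with 0 or 1 gene. Without control 2 it was 62.7% and without succinate 1 71.7%. Gene-poor windows thus made up most of the list under each of these rules, although the individual windows were in part others.

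A set of 49 members stayed among the 300 lowest under all 10 alternative rules, which changed the peaks used, the measure, the minimum of peaks and the chromosome level or left out a library. It was singled out after its values were seen. Of the 49, 19 lay on chromosome 5, 9 on chromosome 11, 5 each on chromosomes 3 and 4 and 1 on chromosome 2. Their differences ranged from -1.66 to -0.93 (median -1.14), and 46 of them had 0 or 1 gene. In all 49 both succinate libraries lay below both control libraries, as in 26.9% of all kept windows, and nothing is read from that count, since the same libraries chose them. They included the windows of GABRB2 and TENM2, both windows of GRM7, a metabotropic glutamate receptor gene, both windows of LRRC4C, a netrin-G ligand gene, and windows of CNTN5, CNTN6, CNTNAP2, PCDH15 and EYS. On chromosome 11 the window chr11:24000001-25000000, with LUZP2, held 38 and 221 peaks in control and 64 and 177 in succinate. On chromosome 4 the window chr4:33000001-34000000, which touched no protein-coding gene, held 32 and 197 peaks in control and 48 and 154 in succinate.

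The same Ksu peaks that chose the members were also merged into regions, so the counts that follow are a description that the choice favours. Peaks of the 4 Ksu libraries were merged into 121834 regions in the members, of which 1257 were present in all 4 libraries, 1907 in both control libraries alone and 3201 in both succinate libraries alone. In the other kept windows there were 4593 of the control kind and 50140 of the succinate kind among 851054 regions, so control-only regions were 1.57% of the regions in the members and 0.540% elsewhere. At equal numbers of peaks the members had 1602 control-only and 276 succinate-only regions. That order was opposite in the other kept windows, at 3236 and 4808. Regions of the members present in exactly 1 control and 1 succinate library numbered between 592 and 1467 for each pair of libraries at equal numbers of peaks, below the control-only count. With all peaks they numbered between 1806 and 13122, and only the pair of control 1 and succinate 2 (1806) was below the control-only count of 1907.

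The longest control-only regions of the members were wide in control 1 and short in control 2. The longest lay at chr5:153614010-153617786 in GRIA1, with 3777 bp under peaks in control 1 and 350 bp in control 2. The next was at chr20:15280647-15284378 in MACROD2, a mono-ADP-ribosylhydrolase gene, with 3732 and 258 bp. The others were at chr2:167130087-167133633 in XIRP2 (3547 and 396 bp), at chr5:160901757-160905175 in ATP10B (3419 and 409 bp) and at chr20:11933750-11937081 outside protein-coding genes (3332 and 238 bp). Their length therefore comes from control 1 alone.

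H3K27me3 was measured in libraries that the rule did not use. Little of it lay in the members. Of the 300, 180 had no base under an H3K27me3 peak in any of the 4 libraries and 19 had cover in every library, against 453 and 1018 of the 2234 other kept windows. H3K27me3 peaks covered 11.3 kb per member in control 1, 4.22 kb in control 2, 5.01 kb in succinate 1 and 3.07 kb in succinate 2, and 78.7, 46.2, 67.3 and 54.1 kb per other kept window. The ratio of members to other kept windows was 0.143 in control 1, 0.0915 in control 2, 0.0744 in succinate 1 and 0.0567 in succinate 2, below 1 in 4 of 4 libraries. The other windows with 0 or 1 gene are the closest match, and 246 of these 418 had no H3K27me3 in any library. They carried 20.2 and 9.65 kb per window in control and 14.6 and 10.97 kb in succinate, more than the members in every library, at ratios of members to them of 0.557, 0.438, 0.343 and 0.279.

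**Figure D5:**
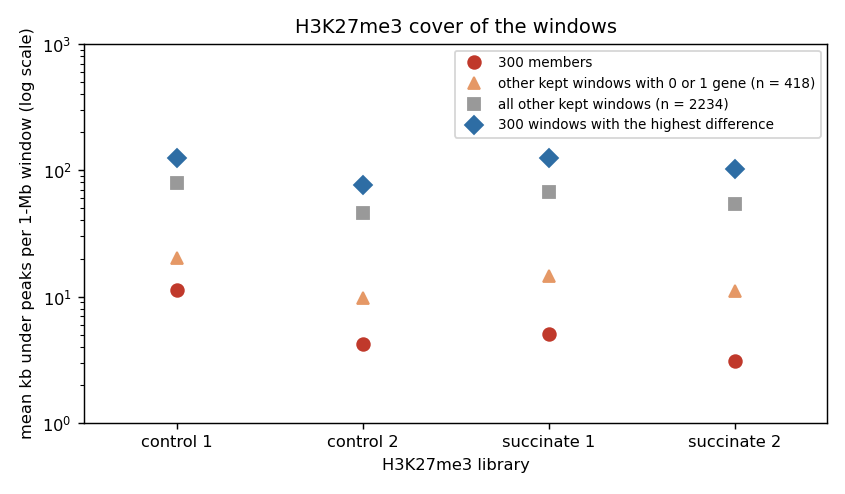
Mean length under H3K27me3 peaks per 1-Mb window (kb, log scale) in the 4 H3K27me3 libraries for the members (red circles), the other kept windows with 0 or 1 gene (orange triangles), all other kept windows (grey squares) and the 300 windows with the highest difference (blue diamonds). The members lie lowest in each library, at 3.07 to 11.3 kb.

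The members' part of all H3K27me3 cover was smaller in both succinate libraries than in both control libraries. They held 1.71% and 1.09% of the autosomal H3K27me3 cover in control and 0.872% and 0.661% in succinate, where all peaks covered 198, 116, 172 and 139 Mb. On the log2 scale succinate minus control came to -0.84, with a pooled SD of 0.38 (n = 2 libraries per treatment). The other windows with 0 or 1 gene held 4.27% in control 1, 3.47% in control 2, 3.55% in succinate 1 and 3.30% in succinate 2, where the treatments overlapped (log2 difference -0.17, pooled SD 0.16). With 2 libraries per treatment an exact permutation test cannot give a p below 0.333, so no difference of this kind could pass 0.05. Control 1, the library with the most H3K27me3 peaks (18962, against 5513 to 9927 in the others), had cover in 120 members, and control 2, succinate 1 and succinate 2 in 29, 45 and 20. With control 1 left out the difference was -0.52, and with control 2 left out it was -1.17. For the 300 windows chosen at equal numbers of Ksu peaks it was -1.40.

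That cover was concentrated in few windows. The 3 members with the most H3K27me3 held 27.1% and 50.6% of the members' cover in control and 39.6% and 53.5% in succinate. The window chr20:24000001-25000000, with SYNDIG1, a synapse differentiation gene, had 339 and 251 kb in control and 237 and 208 kb in succinate. The window chr5:170000001-171000000, with KCNIP1, RANBP17 and part of DOCK2, had 331 and 207 kb in control and 159 and 124 kb in succinate. The window chr2:2000001-3000000, with MYT1L, a neuronal transcription factor gene, had 243 and 183 kb in control and 199 and 160 kb in succinate. In kb, both control libraries lay above both succinate libraries in the first and second of these, and in the third they overlapped. These kb are not scaled to the total cover of each library, so nothing is read from that order. Without these 3 windows the log2 difference of the members' share was -1.02.

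Single windows were tested for H3K27me3 with limma over all 2534 kept windows, on log2(kb under peaks, scaled to equal covered length, + 10 kb). At a Benjamini-Hochberg adjusted p under 0.05, 1 window was called (0.0395%), lower in succinate, and it was not a member, so 0 of 300 members were called. The 180 members without cover in any library could not be called. Among windows with cover in at least 1 library limma called 0. At an unadjusted p under 0.05 limma had 115 windows, 6 of them members. The libraries of the treatments did not overlap, with succinate lower, in 20 members (6.67%), where 12.3% of all kept windows had that pattern. No member had succinate higher in both libraries, where 6.63% of all kept windows did. A window without the mark can show neither pattern. With cover in at least 1 library were 120 members and 1901 kept windows, but many of these could show neither pattern either. Succinate can be lower only where both control libraries had cover, and control 2 had it in 29 members and 1144 other kept windows. It can be higher only where both succinate libraries had cover, and succinate 2 had it in 20 members and 1053 other kept windows. Nothing is therefore read from the counts of 20 and 0 members against 311 and 168 kept windows. The count of called windows changed with the libraries used. Without control 2 limma called 515 windows, of which 504 (19.9% of the kept windows) were lower in succinate, 76 of them members. Without control 1 it called 10, all lower (0.395%), 2 of them members, and without succinate 1 or succinate 2 it called 0. In each of these fits 1 treatment has a single library, which is assumed to vary like the pair of the other treatment.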

How the data were processed

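CUT&Tag of H3K27me3 and Ksu in HepG2/C3A cells gave 8 peak lists, 1 per library, with 2 libraries for each antibody and treatment. Per the submitters' processing notes, peaks were called with SEACR on the genome build hg38, and the file names add the stringent mode. The aligner, scaling, control track and threshold are not given in the sources used here. The deposited lists give each peak's coordinates with its total and highest signal, by the authors. How the signal was scaled in each library is not known, so it was used only to rank peaks within a library, and depth is unknown.

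Windows were counted with Python 3.11.15 and pandas 2.3.3, and H3K27me3 was fitted with limma 3.58.1 in R 4.3.3, without a term for the replicate number. Both steps were tested on simulated data. Exact permutation tests and sign-flips over libraries were computed too, but no p is given for a sum over the chosen windows. Regions were merged where peaks shared 1 bp or more. Genes came from RefSeq (GRCh38.p14), 19126 protein-coding genes on chromosomes 1 to 22. A window names up to 3 genes with the most bases in it. The members and gene lists were chosen with earlier results of these data known. Whether replicates came from separate cultures is not stated beyond the label of biological replicates, so spreads between them may be partly technical. Alternatives changed the peaks used, the measure, the minimum of peaks, the pseudocount and the libraries. Coordinates are counted from 1. Values of 1 of the 10 lowest windows and of 1 gene family are not reported here.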

Additional observations from a re-analysis of the deposited data

Results flagged for a closer look

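Chromosome X lay outside the rule. It held 29578 Ksu peaks over the 4 libraries, more than a count of 0 allows, and was not set against IgG. With the same minimum of peaks 51 of its windows were kept, their median difference was -0.30, and 6 lay at or below the highest difference of the members.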

How the results depend on the processing

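The 8 results were recomputed in 52 ways, and no value that has a direction changed it. Counts and percentages have no direction. The Ksu difference of the members could hardly change direction, since the same Ksu libraries chose them, so nothing is read from its sign. Of the 52 values 16 moved, by more than 1 SD or, for counts, by more than 1.5 times. The other 36 did not, or belong to the H3K27me3 share and density, which were judged by direction and threshold only and could not pass 0.05 under any setting. Subtraction of chromosome medians, the restriction to windows with 0 or 1 gene and the removal of 3 windows were chosen after seeing the data. The median Ksu difference of the members became -1.19 at equal numbers of peaks and -1.08 with only the 50% of peaks that ranked highest by total signal, and ranged from -1.07 to -0.89 when each library was left out. Members still among the 300 lowest numbered 182 at equal numbers and 168 after subtraction of chromosome medians, and 157 to 232 when each library was left out. Windows chosen on replicate 1 had a median of -1.23 in replicate 2 at equal numbers of peaks, and those chosen on replicate 2 had -0.94 in replicate 1. The H3K27me3 share difference ranged from -1.17 to -0.52 and the log2 ratio of density to the other windows from -3.78 to -3.33 when each library was left out. With members chosen at equal numbers of Ksu peaks they were -1.40 and -5.69, against -0.84 and -3.54 as reported. The density ratio was -1.36 against windows with 0 or 1 gene only and -4.35 without the 3 members of highest cover. H3K27me3 windows called by limma numbered 0 with a pseudocount of 100 kb, 0 among windows with cover, 25 at equal numbers and 0 to 515 when each library was left out. With the replicate number as a block, limma called 0 windows, the Ksu difference stayed at -0.93 and the H3K27me3 share difference at -0.84. Deviations of same-numbered libraries had correlations of 0.67 (Ksu) and 0.49 (H3K27me3) over windows, and with 2 numbers this does not establish pairing. The cause of these moves was not tested. Read depth is unknown, which limits any statement on single windows.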
